A study of Mus musculus with 15 samples.

Results

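Klf15 and 9 other genes of the glucocorticoid response were followed in RNA from lung metastases of B16-F10.1, a pigmented mouse melanoma line. The genes were Klf15, Klf9, Fkbp5, Tsc22d3, Zbtb16, Sgk1, Dusp1, Nr3c1, Hif3a and Pdk4. They were found by matching gene symbols to the Ensembl IDs of the deposited tables, which gave 10 of 37620 IDs, and all 10 were among the 16001 genes that passed the filter on low counts. The set was chosen by measured values, taken here to be the restricted minus adequate difference of Klf15, which was low in metastases of methionine-restricted hosts. Which comparison chose it is not stated, and this is an assumption. That difference is therefore given below as a description, with no p for any single gene of the set. Counts of calls there are printed only beside the share of all genes, and support nothing.

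The hosts were male C57BL/6J mice. For 3 diets the design text gives hosts of 8 weeks, 100000 injected cells, 21 days for lung colonies to form and then 2 weeks on diet. Those diets were methionine deficient (0% methionine, n = 3 libraries), methionine restricted (25%, n = 3) and methionine adequate (n = 3). A methionine supplemented diet (300%, n = 6) is given by the labels alone, so its host age, cell dose and times are not stated. The labels name no batch and do not say that libraries came from separate mice, and p-values therefore reflect only sample-to-sample spread, which may be technical. The tumour cells were 1 transplanted line growing in lungs with their own cells still in place. Melanocyte pigment genes were high in every library, with a summed level of 14400 to 28400 CPM over 10 genes. CPM is the count scaled to a fixed library total with TMM factors, which correct for differences in composition. Library totals ran from 13107649 to 29994249 expected counts, and adequate replicate 1 had the lowest scaling factor, 0.69.

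Glucocorticoids are adrenal steroid hormones that enter cells and bind a receptor held by heat-shock chaperones. The bound receptor moves to the nucleus, binds response elements in DNA and raises transcription of genes such as the 9 that accompany the receptor gene here. Klf15, a Kruppel-like zinc finger factor, is one of these targets and is itself known for driving amino acid breakdown in muscle and liver during fasting. In lung, glucocorticoids are known for maturing the alveolar epithelium and for restraining inflammation.

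Promoter windows of Klf15 and Sgk1 are shown because these were the only genes of the set whose libraries in some diet lay wholly below those of the adequate diet. A Tsc22d3 window is shown beside them as another classical target. Sgk1 and Tsc22d3 have several windows each, and only part of them is shown. The Sgk1 window shown is the only one of that gene with the whole response element. The Tsc22d3 window shown is the only one of that gene with a single arm of it. Each window runs from 250 bases before to 50 bases after a gene start, and is credited to RefSeq on GRCm38.p6, which is not the build of the expression files. Capitals mark the glucocorticoid response element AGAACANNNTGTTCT, its single arm AGAACA, the CACCC box that Kruppel-like factors bind, and the E-box CACGTG that clock factors bind. Both strands were searched.
Klf15 (chr6:90462326-90462625, plus strand): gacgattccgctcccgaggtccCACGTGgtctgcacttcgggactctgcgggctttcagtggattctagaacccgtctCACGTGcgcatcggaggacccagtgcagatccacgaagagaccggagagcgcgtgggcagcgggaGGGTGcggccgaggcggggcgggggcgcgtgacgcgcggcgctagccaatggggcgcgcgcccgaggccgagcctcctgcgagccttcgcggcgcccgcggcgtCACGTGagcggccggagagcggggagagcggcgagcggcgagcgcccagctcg
Sgk1 (chr10:21993640-21993939, plus strand): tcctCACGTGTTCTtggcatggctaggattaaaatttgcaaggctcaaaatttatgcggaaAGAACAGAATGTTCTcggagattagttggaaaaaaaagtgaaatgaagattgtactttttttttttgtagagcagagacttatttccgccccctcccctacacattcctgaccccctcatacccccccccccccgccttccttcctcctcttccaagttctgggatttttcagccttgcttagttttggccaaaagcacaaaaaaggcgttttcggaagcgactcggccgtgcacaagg
Tsc22d3 (chrX:140600473-140600772, minus strand): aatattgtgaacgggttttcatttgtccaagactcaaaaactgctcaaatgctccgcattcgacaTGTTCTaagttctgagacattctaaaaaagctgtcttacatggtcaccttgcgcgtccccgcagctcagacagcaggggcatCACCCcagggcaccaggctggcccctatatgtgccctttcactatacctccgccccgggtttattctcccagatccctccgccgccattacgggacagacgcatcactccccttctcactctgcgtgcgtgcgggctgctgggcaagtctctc
The Klf15 window held 3 E-boxes, at -228, -172 and -3 from the gene start, and a CACCC box at -107, with no copy of the arm. At least 3 E-boxes were found in 0.0883% of the 32851 windows in the table. The Sgk1 window held the whole response element at -189, which was found in 3 of all 32851 windows, or 0.00913%. A further arm at -242 overlaps an E-box at -246. In the Tsc22d3 window the arm stood at -185 and a CACCC box at -103. The counts that follow use 15 windows from 8 of the 10 genes. No window of Nr3c1 or Zbtb16 was counted, so nothing is said about the promoters of those genes. The arm was in 4 of the 15, against 19% of all windows, the CACCC box in 8 against 57.5%, and the E-box in 4 against 7.15%. Every window with the arm belonged to Sgk1 or Tsc22d3. As these genes have several windows each, windows are not separate genes, and nothing particular to the set is read from these counts. These matches describe letters, and no binding was measured.

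Klf15 was lower in all 3 other diets than in the adequate diet. It stood at 37.5, 32.7 and 35.8 CPM in the deficient libraries, and at 19.3, 23.9 and 25.9 CPM in the restricted libraries. The adequate libraries had 63.9, 73.2 and 98.8 CPM. In the supplemented libraries the lowest, median and highest values were 26.4, 39.0 and 52.8 CPM. Every adequate library thus lay above all 12 others, and the restricted libraries lay below all the rest. Group means were 35.3 ± 2.45 CPM in the deficient diet, 23.0 ± 3.35 in the restricted, 78.6 ± 18 in the adequate and 39.1 ± 12.5 in the supplemented diet (SD, n = 3, 3, 3 and 6).

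The log2 fold change of Klf15 was -1.77 (SE 0.282) for restricted minus adequate, the difference taken as the one that chose it. It was -1.15 (SE 0.277) for deficient minus adequate and -1.01 (SE 0.23) for supplemented minus adequate. These comparisons reuse the same 3 adequate libraries, so they are given side by side as descriptions. Deficient minus supplemented uses none of these libraries, so it is independent of the choice if that assumption holds. There the log2 fold change was -0.15, with a 95% interval of -0.66 to 0.36 and an adjusted p of 0.976 by edgeR's quasi-likelihood test. Methionine absent and methionine in excess were thus not told apart by Klf15 at this sample size, although the interval leaves room for a moderate difference either way. In bulk tissue, fewer cells of a type and less RNA per cell cannot be told apart.

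**Figure D1:**
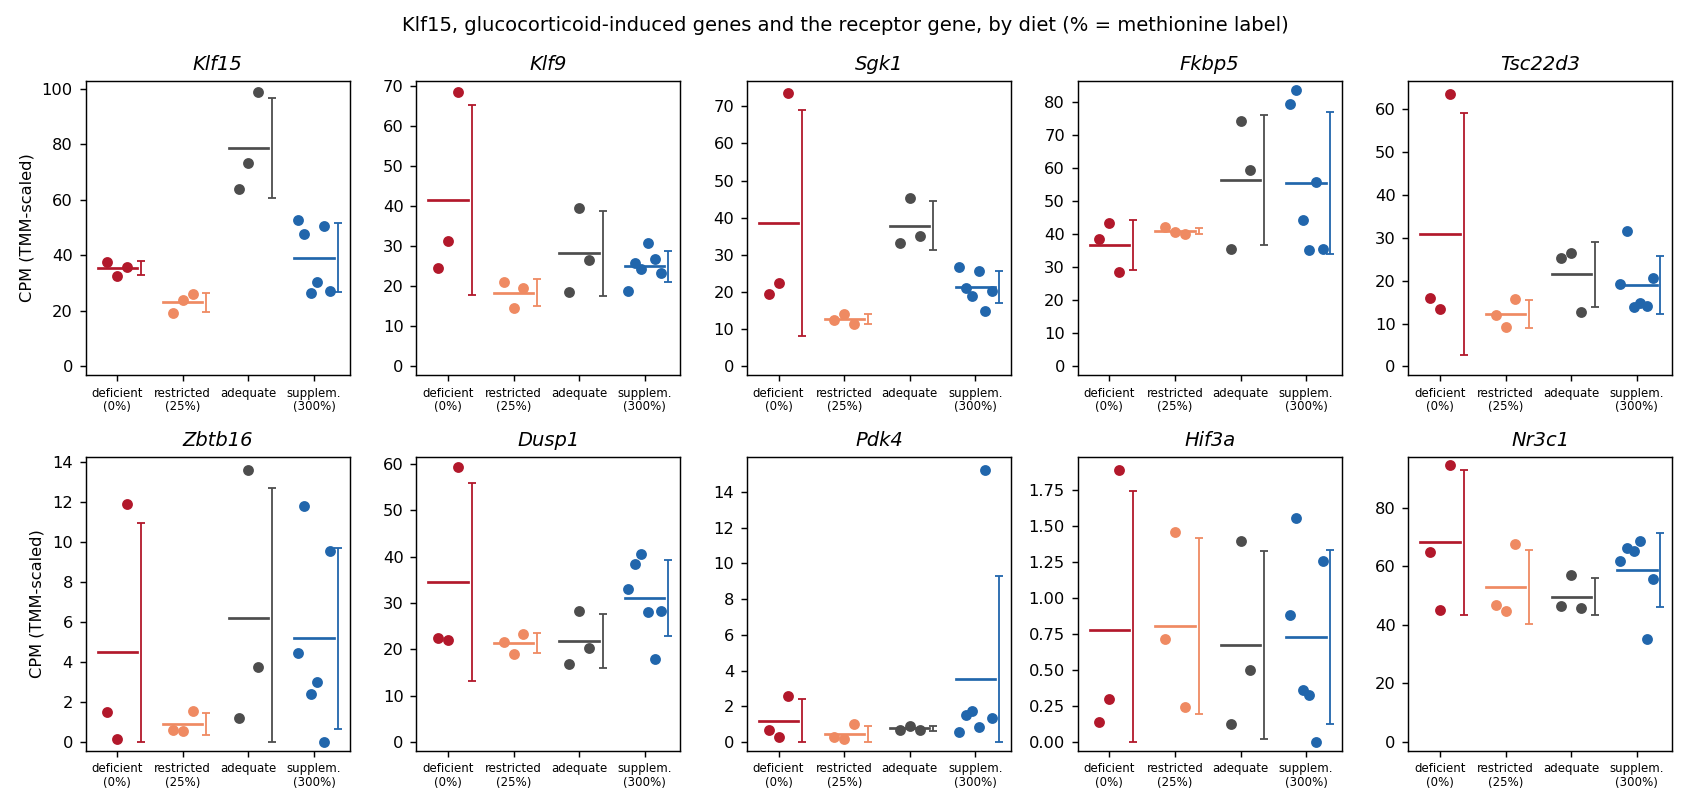
Level of each of the 10 genes in CPM (y axis) in the 15 libraries, by diet on the x axis, with 1 point per library and bars for the mean and SD, clipped at 0. The Klf15 points of the adequate diet, 63.9 to 98.8 CPM, stand above those of every other diet.

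Some markers of other cell types lay apart in the adequate libraries, while the summed level of each marker list overlapped that of another diet. Albumin (Alb) stood at 22.9, 13 and 3.96 CPM in adequate replicates 1 to 3, was at 0 in every deficient library, and reached at most 1.55 CPM in the restricted and 0.361 CPM in the supplemented libraries. Of the 11 hepatocyte markers, 8 passed the filter on low counts, which a gene can pass through its counts in 1 diet. At most 1 of the 11 was at 0 counts in an adequate library. Elsewhere this ran from 2 in restricted replicate 1 to 10 in supplemented replicate 5. The mean log2 level of the 8 was 2.53, 1.32 and 0.20 in the adequate libraries and at most -0.46 elsewhere. As the filter can favour genes high in the adequate diet, this gap is a description and no test. Summed over the list the ranges overlapped, at 25.7 to 32.5 CPM in deficient, 18.9 to 64.0 in restricted, 21.4 to 93.0 in adequate and 3.84 to 29 CPM in supplemented libraries, since Cyp2e1 dominates the sum. Within the adequate diet Klf15 was highest in replicate 3, where Alb was lowest, and lowest in replicate 1, where Alb was highest. Over the 15 libraries the r of Klf15 with the mean log2 level of the same 8 hepatocyte markers was 0.419. It was -0.528 with fibroblast and matrix, -0.466 with endothelial and 0.494 with erythroid markers, all as descriptions. Fibroblast and matrix markers summed to 896 to 1260 CPM in deficient, 679 to 1140 in restricted, 373 to 592 in adequate and 540 to 1450 CPM in supplemented libraries, so the adequate libraries lay below the deficient and restricted ones. The part of these cell types in the Klf15 difference was not tested.

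**Figure D2:**
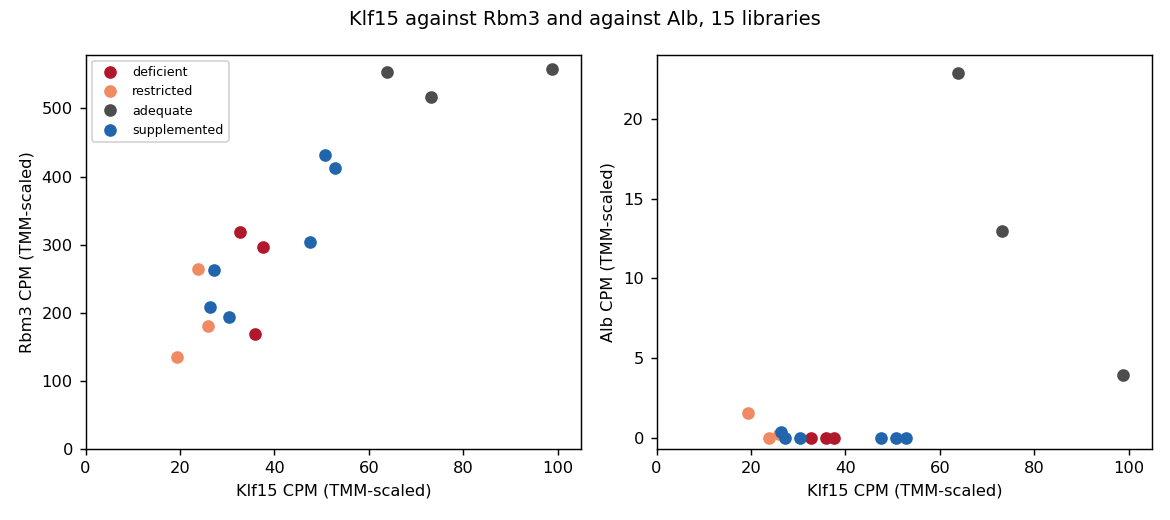
Rbm3 and Alb (y axes, CPM) against Klf15 (x axes, CPM) in the 15 libraries, 1 point per library coloured by diet. The adequate libraries lie highest on every axis, and Alb is at 0 in the 3 deficient libraries.

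Sgk1, a kinase that regulates ion transport and cell survival, was the other gene with libraries wholly below the adequate diet. It stood at 19.4, 22.5 and 73.5 CPM in the deficient libraries and at 12.4, 14.1 and 11.4 CPM in the restricted ones. The adequate libraries had 33.1, 45.3 and 35.2 CPM, and the supplemented libraries ran from 15 through a median of 20.8 to 26.8 CPM. Restricted and supplemented libraries therefore did not overlap the adequate ones, while deficient replicate 3 exceeded all of them. The log2 fold change was -1.58 (SE 0.393) for restricted minus adequate. It was -0.83 for supplemented minus adequate (SE 0.323, edgeR adjusted p = 0.444) and 0.02 for deficient minus adequate (SE 0.381, edgeR adjusted p = 0.989). Without deficient replicate 3 the last of these was -0.86. For deficient minus supplemented the log2 fold change of Sgk1 was 0.85, with a 95% interval of 0.16 to 1.53 and an edgeR adjusted p of 0.87. Leaving out the same library gave -0.03 there. The effective length that RSEM assigned to Sgk1 varied from 761 to 2344 bases between libraries. Per kilobase of that length the restricted libraries had 9.68, 18.6 and 5.64 CPM against 14.8, 21.6 and 17.3 CPM in the adequate libraries, and those groups overlapped.

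Nr3c1 encodes the glucocorticoid receptor. Its level was 64.9, 45.1 and 94.4 CPM in deficient, 46.6, 44.7 and 67.6 CPM in restricted, and 46.3, 56.9 and 45.6 CPM in adequate libraries. Supplemented libraries ran from 35 through 63.5 to 68.7 CPM. All diets overlapped, and no difference passed. The log2 fold change was 0.46 for deficient minus adequate (SE 0.275, edgeR adjusted p = 0.443), and 0.10 for restricted minus adequate.

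Among the other transcription regulators, Klf9, a Kruppel-like factor, stood at 24.5, 31.4 and 68.6 CPM in deficient, 21.0, 14.6 and 19.5 CPM in restricted, and 18.5, 39.6 and 26.5 CPM in adequate libraries. Its log2 fold change was 0.73 for deficient minus supplemented, with a 95% interval of 0.12 to 1.34 and an edgeR adjusted p of 0.87. That value fell to 0.16 without deficient replicate 3. Tsc22d3, which encodes the anti-inflammatory leucine zipper protein GILZ, had 15.9, 13.5 and 63.6 CPM in deficient libraries and 11.9, 9.18 and 15.7 CPM in restricted libraries. Its adequate libraries had 25.3, 26.4 and 12.7 CPM. In both genes deficient replicate 3 was the highest of the 15 libraries. Every diet overlapped the adequate diet in both genes. The log2 fold change for deficient minus adequate was 0.55 for Klf9 (SE 0.338, edgeR adjusted p = 0.45), and without that library it was -0.01. For Tsc22d3 it was 0.53, and -0.54 without that library. Zbtb16, a zinc finger factor also called PLZF, varied widely within diets, at 1.52, 0.15 and 11.9 CPM in deficient, 0.608, 0.555 and 1.54 CPM in restricted, and 1.20, 13.6 and 3.77 CPM in adequate libraries. It had no counts in supplemented replicate 5, where 3 counts would be 0.186 CPM. Hif3a, a hypoxia-inducible factor subunit, never exceeded 29 counts, and its diets overlapped between 0 and 1.89 CPM.

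Fkbp5, a co-chaperone that lowers the receptor's affinity for hormone, was the steadiest gene in the restricted diet. It had 38.5, 43.4 and 28.6 CPM in deficient, 42.1, 40.7 and 40.2 CPM in restricted, and 35.4, 74.3 and 59.4 CPM in adequate libraries. Adequate replicate 1 lay below all restricted libraries and the other adequate libraries lay above them. The log2 fold change was -0.61 for deficient minus adequate (SE 0.337, edgeR adjusted p = 0.4) and -0.02 for supplemented minus adequate (SE 0.29, edgeR adjusted p = 0.989). Dusp1, a phosphatase that switches off MAP kinases, stood at 22.5, 22.1 and 59.3 CPM in deficient, 21.7, 19 and 23.4 CPM in restricted, and 16.9, 28.3 and 20.4 CPM in adequate libraries. Its supplemented libraries ran from 18 through 30.7 to 40.7 CPM, and every diet overlapped the adequate one. The log2 fold change of Dusp1 was 0.66 for deficient minus adequate (SE 0.359, edgeR adjusted p = 0.398) and 0.51 for supplemented minus adequate (SE 0.316, edgeR adjusted p = 0.63). Pdk4, a kinase that restrains glucose oxidation, was at or under 2.57 CPM everywhere except supplemented replicate 5, which had 15.2 CPM.

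Per kilobase of effective length, Klf15 had the highest mean level of the set over the 15 libraries, at 19.2 ± 9.77 CPM per kilobase (SD). Sgk1 at 15.8, Dusp1 at 15.3, Nr3c1 at 15.2 and Fkbp5 at 14.4 CPM per kilobase followed and did not differ beyond their spread. Tsc22d3 at 11.4 and Klf9 at 8.81 came next, while Zbtb16, Pdk4 and Hif3a were at 0.885, 0.564 and 0.399 CPM per kilobase. The order depended on diet. In the restricted diet Klf15, at 10.3 ± 1.49 CPM per kilobase, had a lower mean than Nr3c1 at 13.9 ± 2.22, Fkbp5 at 12.1 ± 0.192, Dusp1 at 11.8 ± 1.27 and Sgk1 at 11.3 ± 6.62. In the deficient diet its 15.8 ± 1.1 was below the means of Sgk1 at 22.4 ± 16.8, Dusp1 at 19.2 ± 12.2, Nr3c1 at 18 ± 8.4 and Tsc22d3 at 17.2 ± 15.4, which deficient replicate 3 raised. In the adequate diet it led with 35.1 ± 8.04, against 17.9 ± 3.45 CPM per kilobase for Sgk1 (SD, n = 3 each).

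Across the set, edgeR called 0 of 10 genes in each comparison at an adjusted p of 0.05. For deficient minus adequate the share of all tested genes called was 0.00625%, and in each of the other comparisons it was 0%. At an unadjusted p under 0.05, 1 of 10 passed for deficient minus adequate (15.1% of all genes), 2 for restricted minus adequate (9.17%), 2 for supplemented minus adequate (9.77%) and 2 for deficient minus supplemented (5.45%). DESeq2 called 1 (Klf15; 3.84% of its tested genes), 2 (Klf15 and Sgk1; 1.16%), 1 (Klf15; 1.66%) and 0 (0%) in that order. The calls of Klf15, and of Sgk1 under restriction, fall on the values that chose the set or on libraries shared with them, so they are no test. Of the 9 other genes DESeq2 called 0 for deficient and 0 for supplemented minus adequate. Groups lay wholly apart with the first diet lower for 1 gene in deficient minus adequate, against 7.96% of all genes, and for 2 genes in restricted minus adequate, against 8.27%. The count was 2 genes in supplemented minus adequate, against 2.24%, and 0 in deficient minus supplemented, against 0.9%. No gene lay wholly higher in the first diet, and in either direction the share of all genes was 15.9%, 16.6%, 4.38% and 1.91% in the 4 comparisons. The median log2 fold change of the set was 0.31, -0.66, -0.10 and 0.11 in those 4 comparisons, beside 0.04, 0, 0.03 and 0.02 for all genes. Restriction had 8 of 10 genes below 0, against 49.6% of all genes, deficiency had 3 of 10, against 47.1%, and supplementation had 6 of 10, against 47.1%. Deficient minus supplemented had 4 of 10 below 0, against 47.5%. As the set was chosen with restricted minus adequate known, nothing is read from its count there.

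**Figure D3:**
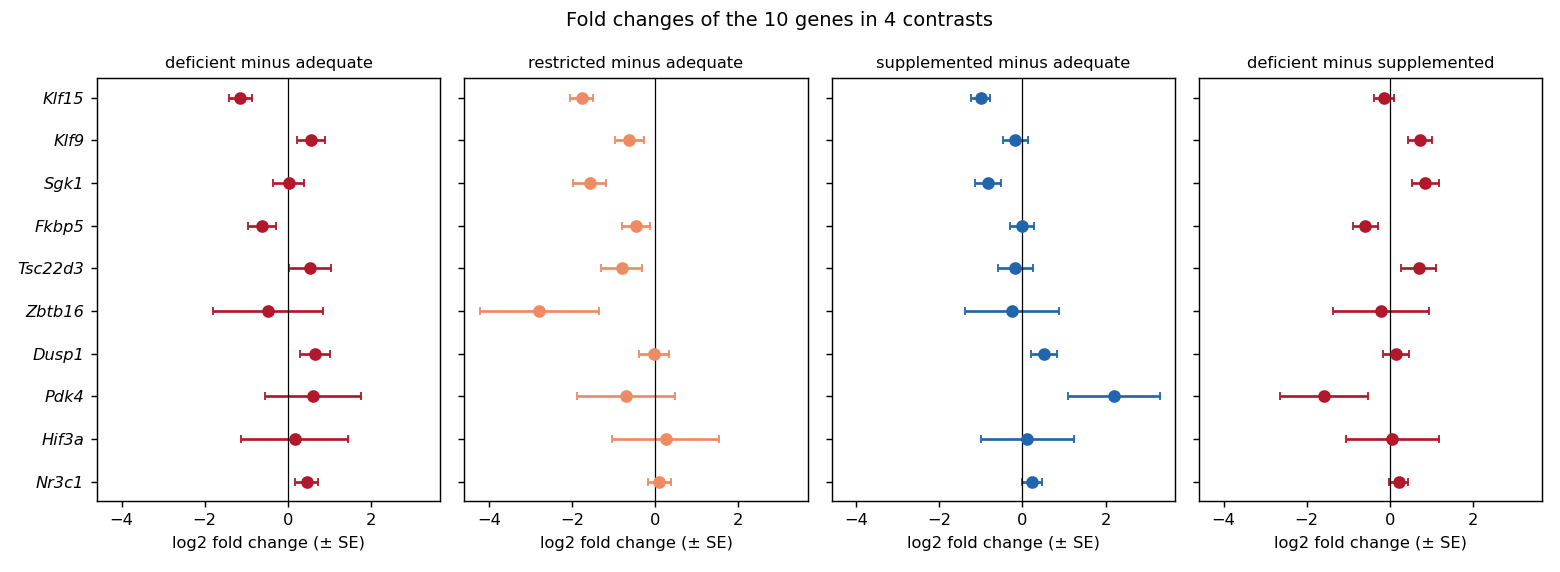
Log2 fold change (x axis) of the 10 genes (rows) in 4 diet comparisons, with bars for the standard error. Klf15 lies at -1.15, -1.77 and -1.01 against the adequate diet and at -0.15 for deficient minus supplemented.

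Several genes of the set followed the level of lung epithelial markers in the sample. The summed level of 15 alveolar markers ran from 312 to 8260 CPM in deficient, 149 to 786 in restricted, 353 to 1330 in adequate and 111 to 2320 CPM in supplemented libraries, and 5 of the 15 markers were at 0 in supplemented replicate 5. Over the 15 libraries, Nr3c1 correlated with the mean log2 alveolar level (Pearson r = 0.844, permutation p = 8e-05, adjusted over 10 genes 0.0008). Its Spearman rho was 0.786 (permutation p = 0.00084, adjusted 0.0084), r was 0.793 without the 2 libraries farthest from the median and 0.869 within diets. Zbtb16 had r = 0.768 (permutation p = 0.00078, adjusted 0.0039) and rho = 0.675 (permutation p = 0.00731, adjusted 0.0244), with r = 0.578 without those 2 libraries.

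Dusp1 had r = 0.687 (permutation p = 0.00551, adjusted 0.0184) and rho = 0.693 (permutation p = 0.0054, adjusted 0.0244), with r = 0.686 without the 2 libraries. Tsc22d3 had r = 0.63 (permutation p = 0.0168, adjusted 0.042) and rho = 0.611 (permutation p = 0.0178, adjusted 0.0445), with r = 0.682 without them. The 2 libraries were restricted replicate 2 and supplemented replicate 5, so deficient replicate 3, with the highest alveolar level, was kept. Without that library, adequate replicate 1 and supplemented replicate 5, r was 0.698 for Nr3c1 and 0.566 for Zbtb16. It was then 0.571 for Dusp1 and 0.581 for Tsc22d3. These 4 of 10 genes passed on both measures. The share of all genes that would pass was not computed, so nothing particular to the set is read from this count. The same 4 genes followed other host cell markers too, given as descriptions. Nr3c1 had r = 0.783 and Dusp1 r = 0.774 with endothelial markers, and Tsc22d3 had r = 0.833 and Zbtb16 r = 0.772 with neutrophil markers. No relation of Klf15 with the alveolar level passed (r = -0.102, permutation p = 0.72, adjusted 0.72; rho = -0.093, permutation p = 0.745, adjusted 0.745), and r was -0.495 within diets. With that level as a covariate its log2 fold changes were -1.05 for deficient, -1.85 for restricted and -1.04 for supplemented minus adequate, and -0.01 for deficient minus supplemented. Without adequate replicate 1, supplemented replicate 5 and deficient replicate 3 together they were -1.29, -1.92, -1.23 and -0.07 in the same order.

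**Figure D4:**
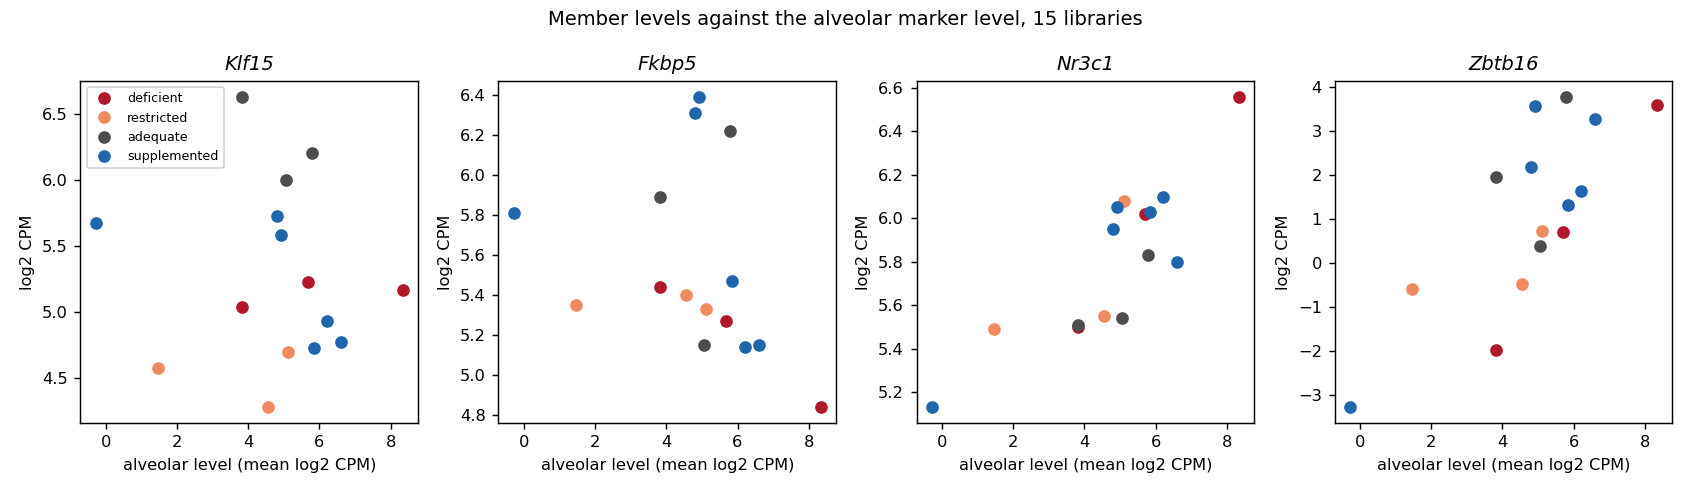
Level of genes of the set in log2 CPM (y axes) against the mean log2 level of 15 alveolar markers (x axes), 1 point per library coloured by diet. Nr3c1 follows the alveolar level with r = 0.844, while r is -0.102 for Klf15.

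Between all 45 pairs of the set, r was above 0 for 36 and had a median of 0.359, from -0.345 for Hif3a with Pdk4 to 0.835 for Dusp1 with Nr3c1. Pairs of other genes were not computed, so nothing particular to the set is read from these values. Of the 9 other genes none followed Klf15 on both measures. Sgk1 had r = 0.578 (permutation p = 0.0246, adjusted over 9 genes 0.158) and rho = 0.736 (permutation p = 0.00266, adjusted 0.0239). Its r fell to 0.447 without adequate replicates 2 and 3, the libraries farthest from the Klf15 median, and was -0.012 within diets. Without adequate replicate 1, supplemented replicate 5 and deficient replicate 3 it was 0.855. Fkbp5 had r = 0.548 (permutation p = 0.0351, adjusted 0.158) and rho = 0.386 (permutation p = 0.159, adjusted 0.425), with r = 0.693 within diets and 0.723 without those 3 libraries. Outside the set, the genes most like Klf15 by Pearson r over the 15 libraries, among 11857 genes, were Rbm3 (0.883), Rab2a (0.877), Lin7c (0.87), Maco1 (0.86), Exoc5 (0.846) and Ppm1a (0.843). These r describe libraries that share depth and diet, and within diets they were 0.504 to 0.747. By Spearman rho, only 1 of these 6 genes, Rbm3, was among the 6 highest. Rab2a encodes a small GTPase of secretory traffic and Ppm1a a protein phosphatase. Rbm3, a cold-inducible RNA-binding protein, averaged 261 ± 81.0 CPM in deficient, 193 ± 65.5 in restricted, 543 ± 22.4 in adequate and 302 ± 101 CPM in supplemented libraries (SD, n = 3, 3, 3 and 6).

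Of 35 other glucocorticoid-induced genes listed, 34 were tested, edgeR called 0 in each comparison, and their median log2 fold change was 0.20 for deficient, -0.15 for restricted and -0.20 for supplemented minus adequate, and 0.28 for deficient minus supplemented. At an unadjusted p under 0.05, 4, 4, 4 and 3 of them passed in these comparisons, beside 15.1%, 9.17%, 9.77% and 5.45% of all genes. DESeq2 called 0, 1, 1 and 0, beside 3.84%, 1.16%, 1.66% and 0% of its tested genes. Per1, a clock repressor, had a log2 fold change of -1.39 for restricted minus adequate (SE 0.587, edgeR adjusted p = 0.492). Mt2, a metallothionein, had -0.67 for deficient minus adequate (SE 0.275, edgeR adjusted p = 0.268), and Bcl6, a repressor in lymphocytes, had 0.88 (SE 0.359, edgeR adjusted p = 0.268), or 0.40 without deficient replicate 3. Anxa1, which encodes the anti-inflammatory protein annexin A1 and is named after its values were seen, averaged 58.1 ± 9.90 CPM in restricted, 64.2 ± 7.99 in supplemented and 108 ± 33.5 CPM in adequate libraries. DESeq2 called it lower for restricted (adjusted p = 0.0115) and for supplemented minus adequate (adjusted p = 0.0175), while edgeR did not (adjusted p = 0.2 and 0.253).

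The receptor machinery, with 15 of 16 genes tested, had medians of 0.37, 0.22 and 0.14 for deficient, restricted and supplemented minus adequate, and edgeR called 0. At an unadjusted p under 0.05, 2, 1 and 1 passed, beside 15.1%, 9.17% and 9.77% of all genes. DESeq2 called 1, 0 and 0, beside 3.84%, 1.16% and 1.66% of its tested genes. Hsd11b1, the enzyme that regenerates active hormone, had a log2 fold change of 1.92 for deficient minus adequate (SE 0.741, edgeR adjusted p = 0.25), and 0.21 without deficient replicate 3, which had 84.2 CPM against 7.57 and 13.8 CPM in the other deficient libraries. The chaperone Hsp90ab1 had -0.30 (SE 0.176, edgeR adjusted p = 0.434). Ncoa3, a receptor coactivator named after its values were seen, averaged 65.1 ± 24.9 CPM in deficient and 32 ± 7.75 CPM in adequate libraries, and DESeq2 called it higher (adjusted p = 0.0117) where edgeR did not (adjusted p = 0.149).

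Of the 10 genes listed as amino acid breakdown genes linked to Klf15, Slc2a4 instead encodes a glucose transporter. These 10 genes had 8, 9 and 8 of 10 below 0 for deficient, restricted and supplemented minus adequate, beside 47.1%, 49.6% and 47.1% of all genes. These counts share the 3 adequate libraries, and for deficient minus supplemented 5 were above and 5 below 0, with a median of -0.07. Their medians against the adequate diet were -0.26, -0.31 and -0.15, and edgeR called 0 in each. At an unadjusted p under 0.05, 0, 2 and 1 passed, beside 15.1%, 9.17% and 9.77% of all genes. DESeq2 called 0, 1 and 1, beside 3.84%, 1.16% and 1.66% of its tested genes. Bcat2, which transaminates branched-chain amino acids, had log2 fold changes of -0.40, -0.43 and -0.46 in the same comparisons, with edgeR adjusted p of 0.479, 0.678 and 0.53. Bckdha, a subunit of the next enzyme in that pathway and named after its values were seen, averaged 29.7 ± 2.57 CPM in restricted, 32.1 ± 3.66 in supplemented and 47.1 ± 8.70 CPM in adequate libraries. DESeq2 called it lower for restricted (adjusted p = 0.0327) and supplemented minus adequate (adjusted p = 0.0418), and edgeR did not (adjusted p = 0.263 and 0.288). Of the Kruppel-like family 13 of 15 genes were tested, edgeR called 0, and the medians were -0.01, -0.20 and -0.13. At an unadjusted p under 0.05, 0, 2 and 2 of these passed, and DESeq2 called 0, beside the same shares of all genes. Klf6 had -0.52 for restricted (SE 0.181, edgeR adjusted p = 0.411) and -0.48 for supplemented minus adequate (SE 0.153, edgeR adjusted p = 0.355), and Klf2 had -1.46 for restricted minus adequate (SE 0.653, edgeR adjusted p = 0.517), or -0.70 without adequate replicate 2.

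**Figure D5:**
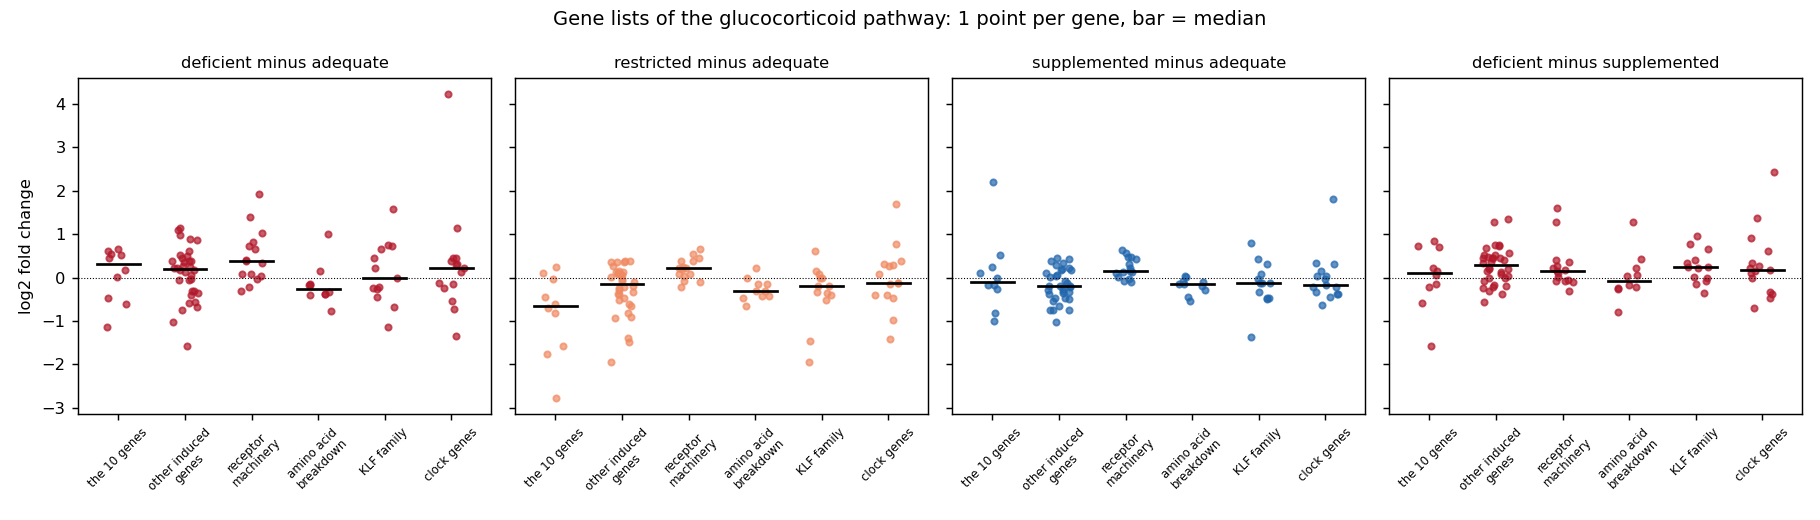
Log2 fold change (y axes) of each gene in the lists named on the x axes, 1 point per gene, with a bar for the list's median and a panel per diet comparison. The amino acid breakdown list, which includes the glucose transporter gene Slc2a4, has medians of -0.26, -0.31 and -0.15 against the adequate diet.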

How the data were processed

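RNA was sequenced from 15 libraries of 4 diets. Per the labels' protocols, ribosomal RNA was removed from total RNA and a strand-marking kit was used. Bowtie2 2.2.9, RSEM 1.30, edgeR and genome build NCBIM37 are named in the submitters' processing notes. Neither annotation nor strand setting is given in the sources used here, so antisense overlaps cannot be told apart. The authors deposited expected counts per gene, with effective lengths.

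Expected counts were rounded to whole numbers. Genes were filtered with filterByExpr, scaled by TMM and fitted in edgeR 4.0.16 (quasi-likelihood, prior count 2, 1 mean per diet over all libraries), with Benjamini-Hochberg adjustment over 16001 genes. DESeq2 1.42.0 was an alternative. The script was tested on simulated data. Other alternatives were no filter, other scaling, an alveolar covariate, the compared diets alone, and leaving out libraries singly or adequate replicate 1, supplemented replicate 5 and deficient replicate 3 together. Library totals were 13107649 to 29994249, and the biological coefficient of variation was 0.461. CPM per kilobase uses the deposited effective length. Intervals are at 95%.

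The 10 genes and the 18 gene lists were chosen with earlier results of these data known. Named genes were all 10, a fixed selection from each list, any list gene passing the test, and the 6 genes with the highest r with Klf15. The replicate numbers follow accession order and only name a library.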

Additional observations from a re-analysis of the deposited data

Results flagged for a closer look

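Pdk4 stood at 15.2 CPM in supplemented replicate 5, while the other 5 supplemented libraries ran from 0.573 to 1.73 CPM. The gap to the nearest library was 0.921 of the group's range, above Dixon's critical value of 0.625 for 6 samples. The 10 genes were each tested in this way in the supplemented diet, and chance flags about 1 in 20 groups. In the same library the summed level of the skeletal and cardiac muscle markers was 1430 CPM, led by Acta1 at 845 CPM and Ckm at 152 CPM, against 3.56 to 41.0 CPM in the other 14 libraries. The part of muscle transcripts in the Pdk4 value was not tested. Without that library the log2 fold change of Pdk4 for supplemented minus adequate was 0.64, against 2.2 with it (SE 1.10, edgeR adjusted p = 0.536), and for deficient minus supplemented it was -0.02, against -1.59.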

How the results depend on the processing

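Of 588 recomputed fold changes of the 10 genes that carry a test, 534 kept their direction and side of the threshold and 54 reversed. None of the 588 passed the threshold, and none had passed in the main fit. Some of these runs left out a library of a diet outside the comparison. The count of 534 is therefore no measure of stability. Another 252 are descriptions, of which 7 turned sign, all for Dusp1, Hif3a or Nr3c1 under restriction. The calls of Klf15 and Sgk1 below fall among these descriptions and are no test. The Klf15 values against the adequate diet kept their direction in every alternative run. For deficient minus adequate, genes called over the whole table were 588 with DESeq2, 0 without the filter, 0 with the alveolar covariate, 0 with the 2 diets alone, 5 without the 3 libraries (adequate 1, supplemented 5 and deficient 3) and 0 to 4 leaving out 1 library at a time. DESeq2 called 1 of the 10 there. For restricted minus adequate they were 131 with DESeq2, 46 with the covariate, 66 without the 3 libraries and 0 to 5 leaving out 1 library. Of the 10 genes, 2, 1, 2 and 0 to 1 were called under those settings. For supplemented minus adequate, 137 were called with DESeq2 and 2 without the 3 libraries, and DESeq2 called 1 of the 10. Signs turned as follows, and the cause was not tested. For deficient minus adequate the covariate gave -0.24 for Sgk1 and -0.61 for Hif3a. Without the 3 libraries the values were -0.25 for Klf9, -0.42 for Tsc22d3, -0.95 for Sgk1, -0.13 for Dusp1, -2.11 for Hif3a and -0.69 for Pdk4. For supplemented minus adequate without them, Tsc22d3 had 0.02 and Hif3a -0.13. For deficient minus supplemented the covariate gave -0.14 for Dusp1, -0.01 for Nr3c1 and -0.65 for Hif3a, and leaving out the 3 libraries gave -0.44 for Tsc22d3, -0.11 for Sgk1, -0.59 for Dusp1, -0.21 for Nr3c1 and -1.97 for Hif3a. Leaving out 1 library at a time, deficient minus adequate ran from -1.61 to 1.25 for Hif3a, -0.01 to 0.88 for Klf9, -0.62 to 1.06 for Pdk4, -0.86 to 0.29 for Sgk1, -0.54 to 0.88 for Tsc22d3 and -2.85 to 0.83 for Zbtb16. Supplemented minus adequate ran from -0.28 to 0.23 for Fkbp5, -0.39 to 1.19 for Hif3a, -0.42 to 0.15 for Klf9, -0.44 to 0.01 for Tsc22d3 and -0.77 to 1.05 for Zbtb16. Deficient minus supplemented ran from -0.48 to 0.39 for Dusp1, -1.71 to 0.54 for Hif3a, -0.09 to 0.44 for Nr3c1, -0.03 to 1.15 for Sgk1, -0.37 to 1.05 for Tsc22d3 and -2.6 to 0.35 for Zbtb16. No paired analysis was possible because the labels give no replicate numbers shared between diets. Leaving out each library in turn for 20 values of list genes, an alternative chosen after seeing the data, gave ranges of -0.48 to 1.91 for Nr1d1 and -0.21 to 0.72 for Dbp in deficient minus adequate, and turned no other sign. Hif3a never exceeded 29 counts, which limits its precision.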

Other observations

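Clock and immediate early genes, which share regulators with the glucocorticoid response, are described here by the same comparisons. All 15 clock genes were tested, edgeR called 0 of them in each comparison, and their median log2 fold change was 0.22 for deficient, -0.12 for restricted and -0.18 for supplemented minus adequate. At an unadjusted p under 0.05, 1, 0 and 0 passed, beside 15.1%, 9.17% and 9.77% of all genes. DESeq2 called 0, beside 3.84%, 1.16% and 1.66% of its tested genes. Nr1d1, a clock repressor, had a log2 fold change of 1.15 for deficient minus adequate (SE 0.748, edgeR adjusted p = 0.477), and Dbp, a clock output factor, had 0.37 (SE 0.496, edgeR adjusted p = 0.752). Without deficient replicate 3, which had 74.1 CPM of Nr1d1 against 11.6 and 8.53 CPM in the other deficient libraries, these turned to -0.48 for Nr1d1 and -0.21 for Dbp. The 10 immediate early genes had medians of 0.09, -0.01 and 0.08 in the same comparisons, with 0 called by edgeR and by DESeq2 and 3, 1 and 1 passing at an unadjusted p under 0.05. Those counts stand beside the same shares of all genes. Fos had 0.54 (SE 0.353, edgeR adjusted p = 0.649) and Egr1 had 0.64 (SE 0.547, edgeR adjusted p = 0.737) for supplemented minus adequate.

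Host cell markers varied between libraries. Endothelial markers summed to 201 to 1600 CPM in deficient, 215 to 296 in restricted, 119 to 167 in adequate and 103 to 425 CPM in supplemented libraries. Erythroid markers summed to 339 to 4410, 186 to 468, 792 to 1170 and 256 to 1380 CPM in the same order of diets. Macrophage markers summed to 286 to 462, 215 to 319, 168 to 290 and 178 to 370 CPM. Lymphocyte markers reached at most 36.2 CPM, neutrophil markers 61.7 CPM and adipocyte markers 22.9 CPM.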
